A study of Mus musculus with 32 samples.

Results

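The comparison described here set 5 cultures of neonatal mouse oligodendrocyte progenitor cells (OPCs) given an SUV420 inhibitor against 5 cultures given the solvent alone. The 10 libraries were taken by their labels, nOPC with iSUV20 and nOPC with DMSO, each group carrying the letters A to E, out of 32 libraries in the whole series. The inhibitor was A-196, used at 5 µM for 48 h and abbreviated SUV420i, and the solvent was dimethyl sulfoxide (DMSO) at 0.02% for the same time.

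SUV420H1 and SUV420H2, encoded by Kmt5b and Kmt5c, extend methylation of lysine 20 of histone H4 to the di- and trimethyl forms, after the enzyme encoded by Kmt5a has placed the first methyl group. Trimethylated H4K20 is best known from silent, compact chromatin, and the dimethyl form is read by the DNA repair factor encoded by Trp53bp1. OPCs are the dividing cells of the oligodendrocyte lineage, which respond to platelet-derived growth factor through the receptor encoded by Pdgfra and later make myelin.

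All cells came from the cortex of wild-type C57BL/6 mice, at postnatal day 5 for the neonatal and day 60 for the adult groups, and were selected on the O4 surface antigen. They grew in SATO medium with forskolin, PDGF-AA and bFGF, so every group also received forskolin, which raises cyclic AMP. Other groups used below for reference were adult cells with SUV420i or DMSO (4 libraries each, letters A to D) and neonatal cells given KATi, a mixture of the acetyltransferase inhibitors garcinol (5 µM) and NU-9056 (0.2 µM), for 48 h (5 libraries). For Scg2, neonatal cells without treatment are also given (3 libraries, letters C, D and E), whose labels state no DMSO and no time. Labels do not say whether libraries of a group came from separate animals or litters, so p-values measure only the spread between these cultures, which may be technical.

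The 10 libraries held between 25.6 and 38.3 M gene counts, and 20259 genes had enough counts to test. Levels are given as CPM, the counts of a gene relative to the library's total (per M counts) after scaling for composition. Each group's summed OPC markers lay in one range, 11580 to 13950 CPM with DMSO and 10720 to 13650 CPM with SUV420i, with all 24 markers detected. Markers of microglia summed to 16.2 to 20.8 CPM and 16.3 to 19.3 CPM, and the defining genes C1qa and C1qb were at 0 in all 10 libraries. Of the endothelial genes, Cldn5 and Cdh5 never exceeded 1 count in a library, and Pecam1 ranged from 0.124 to 0.362 CPM with DMSO and, without overlap, from 0.412 to 0.668 CPM with SUV420i. The summed vascular markers ran from 20.5 to 29.2 CPM with DMSO and 22.8 to 38.04 CPM with SUV420i. Astrocyte markers summed to 3859 to 5265 CPM and 3743 to 5340 CPM. Committed-oligodendrocyte genes varied most within a group, from 1860 to 5476 CPM with DMSO and 1756 to 5798 CPM with SUV420i.

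Whether a letter marks a shared batch of cells is not stated. To check it, each library's deviation from its group mean was correlated between the SUV420i and DMSO libraries over 11945 genes. Same-letter libraries deviated together in letters A, B, D and E (Pearson r across genes of 0.76, 0.86, 0.59 and 0.28) and in opposite directions in letter C (r = -0.24). The SUV420i library of letter C resembled the DMSO libraries of letters E and D more (r = 0.60 and 0.45). That of letter E also correlated more with DMSO letter D (r = 0.48) than with its own letter, so 3 of 5 SUV420i libraries correlated best with their own letter. In adult cells all 4 letters correlated, with r from 0.64 to 0.89. Xist, the RNA that coats the inactive X chromosome of female cells, stood at 47.8 CPM with DMSO and 51.0 CPM with SUV420i in letter D, and between 238 and 862 CPM in the other 8 libraries. Letter C held both ends of that range, 862 CPM with DMSO and 238 CPM with SUV420i. The pairing criterion, an r over 0.1 in every letter, was therefore not met in neonatal cells, where 4 of 5 letters exceeded 0.1. Results are given both without and with the letter as a block.

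**Figure D1:**
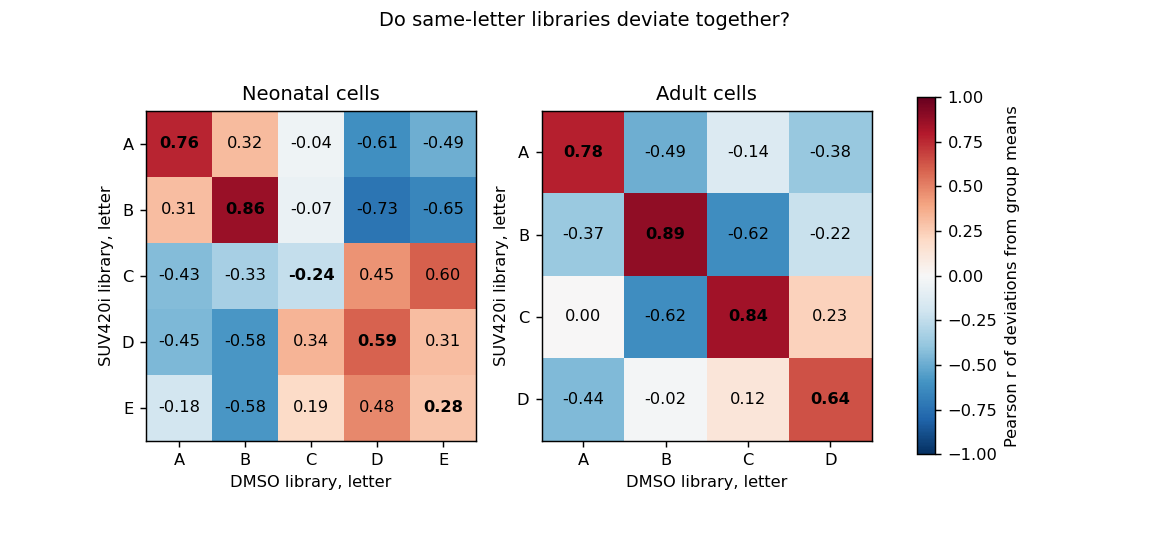
Pearson correlation of deviations from group means between SUV420i libraries (rows) and DMSO libraries (columns), over 11945 genes, for the 5 neonatal and 4 adult letters; the diagonal holds same-letter pairs. The neonatal diagonal is positive except for letter C at -0.24, and the adult diagonal is positive throughout.

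With no block, no gene passed in neonatal cells: edgeR's quasi-likelihood test with Benjamini-Hochberg adjustment called 0 of 20259 genes (0%), and 1577 genes (7.78%) had an unadjusted p below 0.05. The smallest adjusted p of that fit was 0.168, for the plasma membrane calcium pump gene Atp2b3. DESeq2 without a block called 1 gene. With the letter as a block, the same edgeR test called 99 genes (0.489%), of which 78 were higher with SUV420i (0.385%) and 21 lower (0.104%). The differences were small: the median absolute log2 fold change was 0.54, and 91 of the 99 lay below 1. All 5 letters moved the same way for 97 of the 99, against 17.2% of all genes tested, and the DMSO and SUV420i libraries did not overlap for 26, against 2.18% of all genes tested. These shares come from the contrast that chose the genes and are a description of them. Below, a gene is said to have risen or fallen where the blocked fit called it. No gene in the text passed without the block in edgeR. Exons of 28 of the 99 share bases with another gene in GENCODE, so some of their counts may belong to that gene where strand was not used. Among genes described below these include Rarb, Wdr5b, Nefl, Col4a1, Col4a2, Erich3, Pck2, Msn, Dner, Tap2, Sdc3, Rpl3 and Gng10, and among genes not called Kmt5b, Trp53bp1, Pdgfra, Gpr17, Cdkn1a and Anxa3.

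The blocked calls depend on which letters enter. With letter C left out no gene passed. All 99 kept their direction and an unadjusted p below 0.05 in edgeR's test, beside 1574 of the 20166 genes tested in that fit. The libraries left in had helped to choose the 99, so this describes them and is not separate support. Leaving out letter A left 8 calls, letter B 43, letter D 209 and letter E 17. Restricting the fit to the 10 libraries gave 0 calls with or without the block, and restricting it to the 18 neonatal libraries gave 2 with the block, so the 99 also rest on a spread estimated over all 32 libraries.

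The genes encoding the inhibitor's targets did not pass at the RNA level. Kmt5b stood at 98.8, 92.9, 94.9, 86.2 and 83.4 CPM with DMSO in letters A to E and at 88.8, 89.5, 60.3, 89.4 and 73.2 CPM with SUV420i. The groups overlapped, and the log2 fold change was -0.19 ± 0.11 (SE) in the blocked fit (edgeR adjusted p = 0.333). Kmt5c averaged 43.0 ± 2.89 CPM (SD, n = 5) with DMSO and 48.0 ± 5.73 CPM with SUV420i, and Kmt5a 112 ± 20.1 and 115 ± 12.5 CPM. Trp53bp1, which reads the dimethyl mark, averaged 167 ± 9.93 and 150 ± 14.9 CPM. Among 24 genes for writers, erasers and readers of H4K20 methylation, 0 of 24 were called, 8 had a positive and 16 a negative log2 fold change, and their median was -0.08 beside 0.027 for all genes tested. That median was -0.29 in letter C and from -0.14 to 0.05 in the other letters. It was -0.01 once GC content and length were taken out as described below. These values concern messenger RNA and not the mark itself or the enzymes' activity.

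Scg2 and H2-K1 rose, Rarb fell, and adult cells differed in the same direction for all 3, so 250 bases before a RefSeq transcript start of each are shown for reference. For Rarb and for Scg2 this start lies inside the GENCODE span of the gene given below, so it is not the gene's outermost start. They come from RefSeq on GRCm38.p6, each read 5′ to 3′ on the gene's own strand, and 80 of the 99 called genes had an entry in that table. Capitals mark known control elements found by letters on either strand. In Rarb, at chr14:16575477-16575726 (minus strand), they mark the direct repeat that binds retinoic acid receptors, searched as 2 copies of GTTCA with any 6 bases between them and present in 0.067% of 32851 promoters. In Scg2, at chr1:79440027-79440276 (minus strand), they mark the cyclic AMP response element TGACGTCA, present in 1.55% of promoters. In H2-K1, at chr17:34000348-34000597 (minus strand), the first capitals mark the element of class I promoters that binds NF-kB factors, found with these letters in 0.0304% of promoters, and the second an interferon response element, in 0.0426%. The searched elements do not overlap one another.
Rarb: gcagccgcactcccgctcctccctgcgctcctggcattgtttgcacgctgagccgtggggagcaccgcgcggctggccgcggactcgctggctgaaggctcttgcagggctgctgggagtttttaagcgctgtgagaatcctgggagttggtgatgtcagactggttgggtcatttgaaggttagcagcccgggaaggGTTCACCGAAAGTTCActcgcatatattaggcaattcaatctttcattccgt
Scg2: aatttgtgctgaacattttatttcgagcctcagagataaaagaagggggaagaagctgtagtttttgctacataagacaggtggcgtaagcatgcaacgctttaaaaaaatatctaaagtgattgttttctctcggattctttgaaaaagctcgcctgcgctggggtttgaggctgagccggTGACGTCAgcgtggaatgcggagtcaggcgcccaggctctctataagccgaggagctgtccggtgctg
H2-K1: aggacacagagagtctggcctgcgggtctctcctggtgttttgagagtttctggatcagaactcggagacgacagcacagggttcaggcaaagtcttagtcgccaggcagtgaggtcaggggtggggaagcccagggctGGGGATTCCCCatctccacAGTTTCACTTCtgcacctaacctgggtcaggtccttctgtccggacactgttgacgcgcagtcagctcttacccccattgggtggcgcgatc
A match describes these letters only. Sstr2, which encodes a somatostatin receptor, was the only other called gene among the 80 with TGACGTCA in this window, and no other called gene held the remaining 3 elements.

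Scg2 had the largest rise among the called genes that the naming rule allows, at an average log2 CPM of at least 2. It encodes secretogranin II, a granin stored in dense-core vesicles, at chromosome 1, 79434669 to 79440120. Its level was 5.75, 36.9, 14.6, 41.5 and 13.1 CPM with DMSO in letters A to E and 8.91, 92.2, 31.6, 55.4 and 42.7 CPM with SUV420i. Every letter was higher with SUV420i, but letters differed more than treatments and the groups overlapped widely. The log2 fold change was 1.03 ± 0.18 (edgeR adjusted p = 0.0146), and the fit without a block gave 1.04 with an adjusted p of 0.762. Neonatal cultures without any treatment, from letters C, D and E only and with no time in their labels, averaged 114 ± 42.6 CPM (SD, n = 3). Other dense-core vesicle genes rose less or did not pass. In a list of 23 chosen after values were seen, 3 rose (Scg2, Dnm1 and Cplx1), 0 fell and the median was 0.16. Over all genes tested 0.385% rose and the median was 0.027. The median of the list was 0.51 in letter C and from 0.03 to 0.21 in the other letters. Chga, another granin, averaged 18.1 ± 2.83 CPM with DMSO and 22.01 ± 3.75 CPM with SUV420i, and its difference did not pass (edgeR adjusted p = 0.199).

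Oprl1 and Erich3 separated the groups fully. Oprl1, the receptor for the neuropeptide nociceptin, stood at 6.33, 6.18, 6.14, 5.64 and 6.88 CPM with DMSO and at 10.5, 10.8, 7.76, 9.002 and 11.04 CPM with SUV420i. The lowest SUV420i library, letter C, lay above the highest DMSO library, and the log2 fold change was 0.65 ± 0.13 (edgeR adjusted p = 0.0253). Erich3 stood at 2.76, 3.23, 2.13, 2.74 and 2.23 CPM with DMSO and at 5.15, 5.70, 3.75, 5.14 and 3.86 CPM with SUV420i. Its log2 ratio lay between 0.77 and 0.89 in every letter, and the log2 fold change was 0.85 ± 0.13 (edgeR adjusted p = 0.00488). Exons of Erich3 overlap the antisense gene Gm20389 in GENCODE, and without a stated strand setting the reads of both cannot be told apart.

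The 9 remaining leading rises had varied roles. Gng11, a G protein gamma subunit, averaged 2.75 ± 1.31 CPM with DMSO and 4.94 ± 1.59 CPM with SUV420i, a log2 fold change of 0.88 ± 0.17 that was 0.66 without letter C. S100a1, a calcium-binding protein, rose by 0.92 ± 0.19 and Dusp26, a dual-specificity phosphatase, by 0.77 ± 0.16 on the log2 scale. S100a1 spanned 3.38 to 13.9 CPM with DMSO and 4.85 to 19.2 CPM with SUV420i, so letters again differed more than treatments. Cela1, an elastase-family protease, rose by 0.87 ± 0.18, and Lgals3bp, a secreted glycoprotein that binds galectins, by 0.86 ± 0.17. Car11, a carbonic anhydrase relative without catalytic activity, went from 8.54 ± 1.90 CPM to 14.1 ± 1.99 CPM (log2 fold change 0.73 ± 0.12). Col26a1, a collagen, rose by 0.71 ± 0.16, and the long non-coding RNA Crnde by 0.65 ± 0.12. Gsta4, a glutathione transferase that clears products of lipid peroxidation, rose by 0.66 ± 0.15 and was the only called gene among 25 NRF2 targets. Adjusted p-values for these 9 genes ran from 0.00917 to 0.0457 in edgeR's blocked test.

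**Figure D2:**
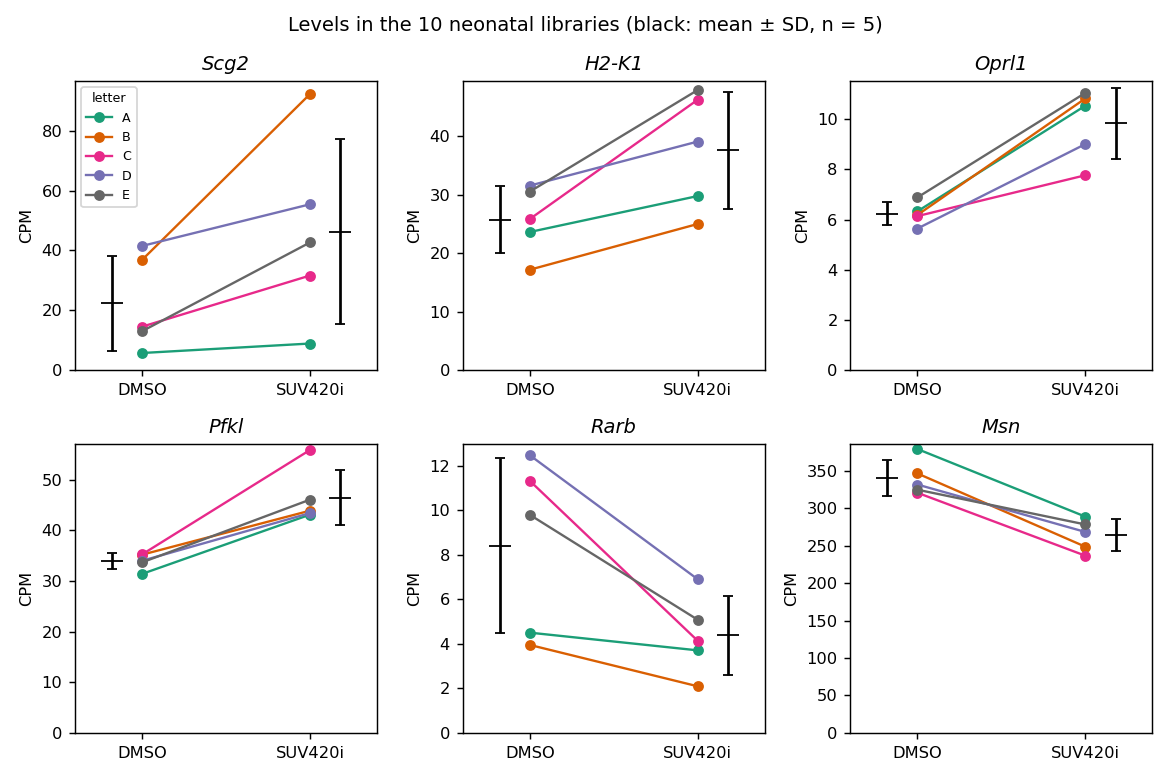
CPM of 6 genes in the 10 neonatal libraries, with a line joining same-letter DMSO and SUV420i libraries and black bars giving the mean ± SD of each group (n = 5). Lines for Scg2, H2-K1, Oprl1 and Pfkl slope upward and those for Rarb and Msn downward in all 5 letters; only Oprl1, Pfkl and Msn have groups that do not overlap.

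H2-K1, the gene of a classical class I histocompatibility heavy chain, rose with a smaller but less variable difference; it lies outside the naming rule and was chosen after its values were seen. It stood at 23.6, 17.2, 25.8, 31.5 and 30.5 CPM with DMSO and at 29.7, 24.97, 46.2, 39.0 and 47.8 CPM with SUV420i. All 5 letters were higher, the groups overlapped, and the log2 fold change was 0.54 ± 0.08 (edgeR adjusted p = 0.00589). Tap2, a subunit of the peptide transporter that loads class I molecules, separated the groups, with 3.07 to 4.55 CPM against 4.70 to 5.92 CPM. In a list of 21 class I antigen presentation genes chosen after values were seen, H2-K1, Tap2 and Hfe, a class I relative that controls iron uptake, rose, 0 fell, and 19 had a positive log2 fold change, with a median of 0.25. That median was 0.73 in letter C and between 0.05 and 0.26 in the other letters. B2m, the light chain shared by class I molecules, averaged 44.3 ± 6.36 and 48.3 ± 4.54 CPM and did not pass (edgeR adjusted p = 0.330). H2-D1, a close relative of H2-K1 with which reads may be shared, averaged 14.2 ± 2.34 and 18.5 ± 3.66 CPM (edgeR adjusted p = 0.0732). Of 28 interferon response genes 0 were called, 22 had a positive log2 fold change and their median was 0.14, beside 54.6% positive and a median of 0.027 over all genes.

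Rarb, the gene of retinoic acid receptor beta at chromosome 14, 16430839 to 16819156, had the largest fall that the naming rule allows. It stood at 4.50, 3.95, 11.3, 12.5 and 9.80 CPM with DMSO and at 3.71, 2.09, 4.14, 6.90 and 5.08 CPM with SUV420i. Letters C, D and E were high with DMSO and letters A and B low, so the groups overlapped. The log2 ratio was -0.28 in letter A, -1.44 in letter C and between -0.85 and -0.94 in the other letters. The log2 fold change was -0.89 ± 0.13 (edgeR adjusted p = 0.00488), and -0.75 without letter C. Rara and Rarg, the other retinoic acid receptors, averaged 4.73 ± 0.958 and 13.6 ± 0.958 CPM with DMSO and 6.62 ± 1.87 and 16.4 ± 2.33 CPM with SUV420i, and neither passed. In a list of 19 retinoid genes chosen after values were seen, Rarb fell and Dhrs4, a retinol dehydrogenase, rose, while the median was 0.08. Exons of Rarb overlap Top2b and a non-coding gene on the opposite strand, so part of its counts could belong to them.

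Msn, Dner, Atp6v1a and Pitpnc1 fell without overlap between the groups. Msn encodes moesin, which links actin to the membrane, and stood at 379, 347, 321, 332 and 325 CPM with DMSO against 289, 249, 237, 268 and 278 CPM with SUV420i. Its log2 fold change was -0.37 ± 0.07 (edgeR adjusted p = 0.0190). Dner, a transmembrane protein with EGF-like repeats that can act on Notch, went from 227 ± 12.6 to 176 ± 21.8 CPM. Atp6v1a, the catalytic subunit of the vacuolar proton pump, went from 204 ± 10.7 to 157 ± 18.0 CPM. It was the only called gene of the 20 pump subunits tested, 14 of which had a positive log2 fold change. Pitpnc1, a phosphatidylinositol transfer protein, went from 202 ± 10.0 to 161 ± 5.91 CPM. Adjusted p-values for these 3 genes ran from 0.0190 to 0.0349 in edgeR's blocked test.

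Further falls were of similar size. Lrp1, a large endocytic receptor, stood at 1210, 1099, 1023, 971 and 1150 CPM with DMSO and at 983, 836, 533, 782 and 738 CPM with SUV420i, a log2 fold change of -0.51 ± 0.11 that was -0.42 without letter C. The letter C library with SUV420i was the lowest of the 10. Myo10, a myosin of filopodia, fell by 0.37 ± 0.08, Spata13, an exchange factor for small GTPases, by 0.37 ± 0.07 and Dusp16, a MAP kinase phosphatase, by 0.38 ± 0.07 on the log2 scale. Ccng2, an atypical cyclin, fell by 0.37 ± 0.08, Tanc1, a postsynaptic scaffold protein, by 0.32 ± 0.07 and Wdr5b, a relative of the histone methyltransferase subunit Wdr5, by 0.42 ± 0.09. Exons of Wdr5b overlap Fam162a on the opposite strand. Sdc3, a cell surface proteoglycan chosen after its values were seen, went from 989 ± 101 to 830 ± 92.2 CPM (log2 fold change -0.25 ± 0.06, edgeR adjusted p = 0.0452). In a list of 8 syndecan and membrane linker genes chosen after values were seen, Msn and Sdc3 fell and 0 rose. Its other members held Ezr, the gene of ezrin, at 52.5 ± 26.6 and 67.7 ± 33.5 CPM, and Rdx, the gene of radixin, at 263 ± 34.8 and 237 ± 34.1 CPM, and neither passed.

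**Figure D3:**
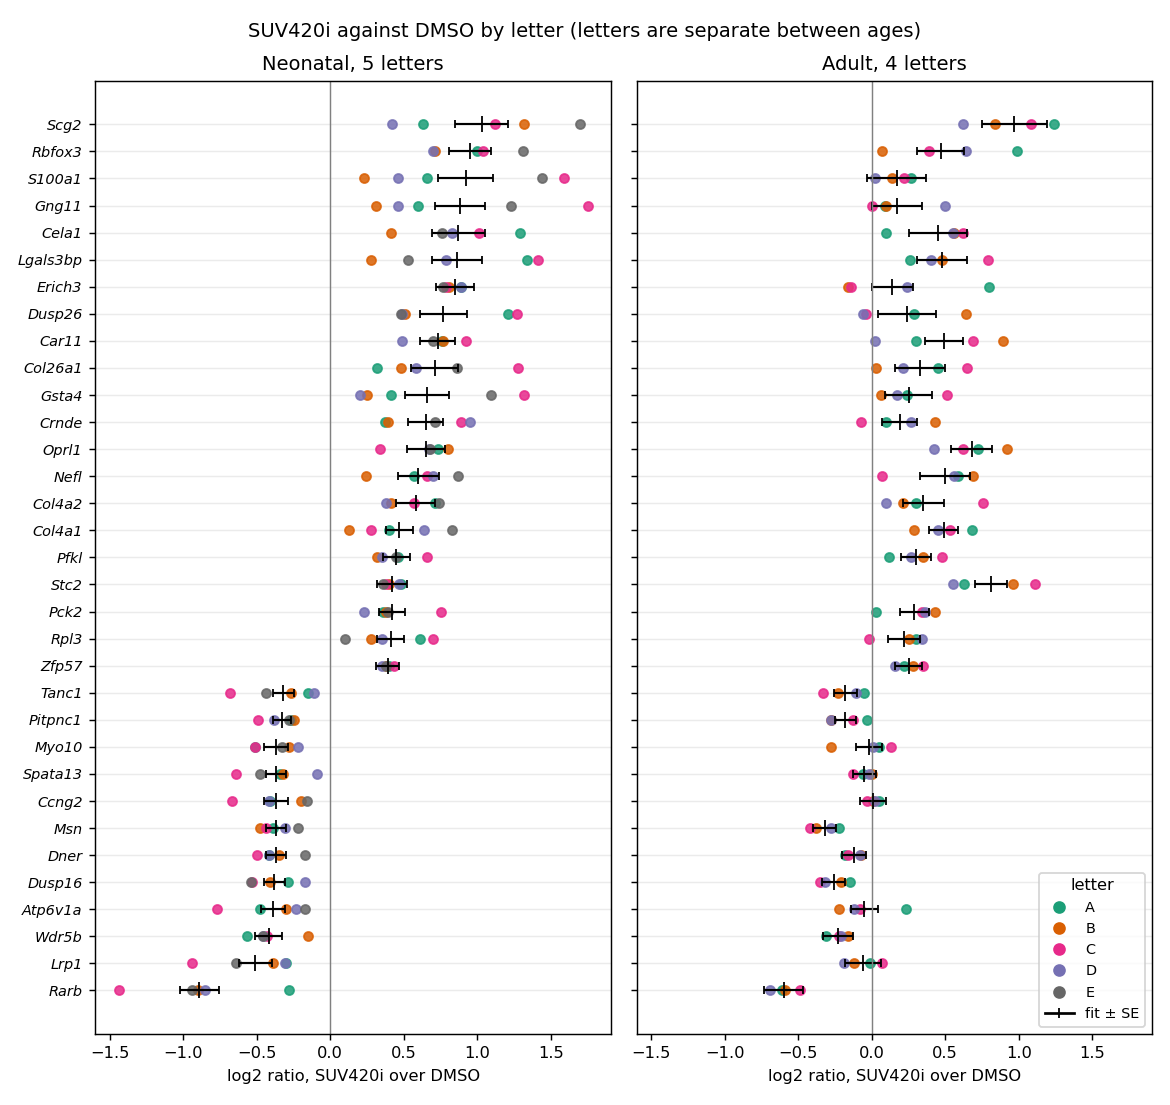
Log2 ratio of SUV420i over DMSO in each letter (coloured points) and the blocked estimate ± SE (black) for the 33 named genes called in neonatal cells, in the 5 neonatal letters on the left and the 4 adult letters on the right. All neonatal points of a gene lie on one side of 0; letter C is often the outermost, and adult points of Rarb, Msn, Scg2 and Stc2 lie on the same side as the neonatal ones.

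Few members of any gene list passed, and most lists held none. Rbfox3 and Nefl rose among 16 neuron markers. Rbfox3, an RNA-binding protein of mature neurons, stood at 2.33, 4.43, 1.33, 1.68 and 1.09 CPM with DMSO and at 4.74, 7.29, 2.81, 2.77 and 2.79 CPM with SUV420i (log2 fold change 0.95 ± 0.14, edgeR adjusted p = 0.00488). Nefl, the light neurofilament, went from 5.92 ± 1.89 to 8.81 ± 1.36 CPM, and its exons overlap Nefm. The neuron markers did not move as a whole: 8 of the 16 had a positive log2 fold change, and their summed level ran from 1158 to 1411 CPM with DMSO and from 721 to 1165 CPM with SUV420i. Map2, which makes up most of that sum, averaged 960 ± 100 and 678 ± 144 CPM and did not pass (edgeR adjusted p = 0.107). The part of other cells in the Rbfox3 and Nefl values was not tested; in bulk cultures fewer cells of a type and less RNA per cell cannot be told apart.

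Col4a1 and Col4a2, the chains of the most common basement membrane collagen, rose among 30 matrix genes, of which 12 had a positive log2 fold change. Col4a1 stood at 14.4, 20.2, 11.4, 12.4 and 9.80 CPM with DMSO and at 19, 22.2, 13.9, 19.4 and 17.5 CPM with SUV420i, a log2 fold change of 0.47 ± 0.09 (edgeR adjusted p = 0.0253). Col4a2 went from 5.01 ± 1.19 to 7.39 ± 1.42 CPM, a log2 fold change of 0.58 ± 0.13 (edgeR adjusted p = 0.0437). Both were higher with SUV420i in every letter, and both groups overlapped. The annotated starts of these genes lie 21 bases apart on opposite strands of chromosome 8 (11312826 for Col4a1 and 11312805 for Col4a2 in GRCm38.p6), so their first exons overlap. Pericytes and endothelial cells also make these chains; vascular markers were low in both groups but tended the same way, with a median log2 fold change of 0.22, 10 of 13 positive and 0 called, and with Pecam1 higher without overlap. Their part in the result was not tested.

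Pfkl was the called gene among 25 glycolysis and hypoxia genes. It encodes the liver-type phosphofructokinase, and stood at 31.4, 35.2, 35.3, 34.0 and 33.7 CPM with DMSO and at 43.1, 43.9, 55.9, 43.4 and 46.1 CPM with SUV420i. The groups did not overlap, and the log2 fold change was 0.45 ± 0.09 (edgeR adjusted p = 0.0253). Of this list 23 of 25 had a positive log2 fold change, with a median of 0.16, which came to 0.44 in letter C and 0.05 to 0.20 in the other letters. Tpi1 and Vegfa, with log2 fold changes of 0.32 ± 0.08 and 0.47 ± 0.12, came closest to passing among the rest (both edgeR adjusted p = 0.0803). Gapdh averaged 6.85 ± 2.15 and Pgk1 4.40 ± 0.928 CPM with DMSO; both have many processed pseudogenes, so their counts are uncertain.

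Pck2 and Stc2 rose among 29 ATF4 and integrated stress response genes. Pck2, the mitochondrial enzyme that makes phosphoenolpyruvate, went from 34.4 ± 3.49 to 46.3 ± 6.66 CPM (log2 fold change 0.42 ± 0.09, edgeR adjusted p = 0.0349). Stc2, a secreted glycoprotein, stood at 7.96, 11.5, 10.1, 8.18 and 8.46 CPM with DMSO and at 11.1, 15.2, 13.2, 11.4 and 10.9 CPM with SUV420i (log2 fold change 0.42 ± 0.10, edgeR adjusted p = 0.0461). The list's median was 0.14, with 22 of 29 positive. It came to 0.38 in letter C and 0.03 to 0.18 in the other letters, and to 0.04 with GC content and length taken out as described below. The list's best-known members did not pass: Atf4 averaged 179 ± 25 and 215 ± 25.2 CPM, and Asns, asparagine synthetase, 88.6 ± 17.7 and 106 ± 19.7 CPM.

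Zfp57, which keeps DNA methylation at imprinted loci, rose among 356 genes named Zfp, of which 104 had a positive log2 fold change and whose median was -0.13. It stood at 26.5, 17.1, 20.6, 23.5 and 18.7 CPM with DMSO and at 35.1, 22.3, 27.8, 30.0 and 24.3 CPM with SUV420i, and its log2 fold change was 0.39 ± 0.08 (edgeR adjusted p = 0.0253). Rpl3 was the called gene of 84 ribosomal protein genes, 75 of which had a positive log2 fold change, with a median of 0.18. That median was 0.57 in letter C and from 0 to 0.13 in the other letters. Nuclear respiratory chain genes had the same pattern, with 0 of 28 called, a median of 0.15, and 0.57 in letter C against -0.08 to 0.12 elsewhere.

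Markers of progenitor state, division and arrest did not pass. Pdgfra stood at 1219, 613, 1757, 1592 and 1622 CPM with DMSO and at 1087, 615, 1249, 1579 and 1490 CPM with SUV420i (log2 fold change -0.15 ± 0.09, edgeR adjusted p = 0.332). Cspg4, the NG2 proteoglycan, had a log2 fold change of -0.21 ± 0.08. Gpr17, a receptor of committed progenitors, ran from 43.0 CPM in letter B to 2314 CPM in letter D with DMSO and from 48.9 to 2527 CPM in the same letters with SUV420i. Differences between letters were thus far larger than any difference between treatments for this gene. Mbp, a myelin protein gene, had a log2 fold change of 0.38 ± 0.22. Mki67, a marker of dividing cells, had -0.31 ± 0.26 and was lowest in the SUV420i library of letter C at 511 CPM. Cdkn1a, the p53 target that arrests the cell cycle, had 0.09 ± 0.12. Among OPC (23 tested), committed-stage (19 tested), myelin (24 tested), S phase (50 tested), G2 and M phase (54 tested), p53 target (32 tested) and double-strand break repair genes (32 tested) no gene was called, 0 in each list, and the medians lay between -0.06 and 0.13.

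The other lists held no called gene. Ion channel and synaptic genes of OPCs had the lowest median, -0.19 over 24 genes with 7 positive, which was -0.01 once GC content and length were taken out as described below. Clustered protocadherins had a median of -0.08 (14 of 55 positive) and replication-dependent histone genes 0.08 (26 of 42 positive). Host genes of small nucleolar RNAs had 0.21 (12 of 13 positive), vascular markers 0.22 (10 of 13 positive), NF-kB targets and cytokines 0.17 (13 of 15 positive) and BMP and TGF-beta response genes 0.17 (12 of 16 positive). Cholesterol genes (26 tested) and fatty acid and sphingolipid genes (25 tested) both had a median of 0.06. Heat shock genes had 0.13, immediate-early genes 0.12, Wnt genes 0.10, unfolded protein response genes 0.08, acetyltransferase and deacetylase genes 0.08, neural stem genes 0.07, apoptosis genes 0.05 and imprinted genes 0.05. Medians were 0.04 for astrocyte markers, Notch genes and germline genes, 0.02 for xenobiotic response genes and for DNA methylation and heterochromatin genes, 0.01 for MAPK feedback genes, -0.05 for genes of the mitochondrial genome and -0.08 for the 6 microglia markers tested. Among the 6 collagen IV genes, a list chosen after values were seen, Col4a1 and Col4a2 rose, 5 were positive and the median was 0.44.

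Differences in letter C followed the composition of the transcripts. Across 10999 protein-coding genes the log2 ratio of SUV420i over DMSO had an SD of 0.562 in letter C and of 0.166 to 0.239 in the other letters. In letter C the ratio rose with transcript GC content (Spearman rho across genes, which are not independent replicates, 0.59) and fell with transcript length (rho = -0.62). Such trends were not confined to letter C: rho with GC was 0.56 in letter A, 0.30 in B, 0.27 in D and -0.17 in E, and in adult letters A to D -0.49, 0.49, 0.22 and 0.50. Genes were ordered by GC and cut into 5 equal bins. From the lowest to the highest bin, the median log2 ratio of letter C went from -0.563 to 0.371. The blocked log2 fold change went from -0.169 to 0.107 over the same bins, and from 0.133 in the bin of the shortest to -0.157 in that of the longest transcripts. Adult cells had smaller medians, from -0.047 to 0.028 by GC. The 78 higher genes had a median transcript GC of 54.8%, against 48.5% for the 21 lower genes and 49.1% for all genes, with a value for 98 of the 99. Median transcript lengths were 2893 bases for the higher genes, 5039 for the lower genes and 2891 for all genes. The values for all genes are not those of the 10999 protein-coding genes, whose middle bin by length ran from 3174 to 4181 bases.

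A fit that removed each library's trend with GC and length, chosen after seeing the data, gave 283 blocked calls (1.4%), 187 higher and 96 lower. It kept 87 of the 99, and all 99 kept their direction, on the same libraries that had chosen them. Without letter C that fit gave 18 calls, 16 of them among the 99. The medians of many lists above moved toward 0. The ribosomal median went from 0.18 to 0.07, the respiratory chain median from 0.15 to 0.03 and the Zfp median from -0.13 to -0.06. Those for integrated stress response, glycolysis and class I antigen presentation genes went from 0.14 to 0.04, 0.16 to 0.10 and 0.25 to 0.16. The interferon median stayed at 0.14. Some moved away from 0, such as vascular markers (0.22 to 0.28) and collagen IV genes (0.44 to 0.54). Scg2, H2-K1, Oprl1, Pfkl, Rarb and Msn were all called in this fit, with log2 fold changes of 1.00, 0.40, 0.59, 0.37, -0.92 and -0.36. Col26a1, Rpl3 and Ccng2 were not (edgeR adjusted p = 0.0686, 0.0516 and 0.0606), nor were Cplx1 and Dhrs4 (0.0558 and 0.0833). The log2 fold change of Lrp1 went from -0.51 to -0.30 and remained called. Without the block it called 0 genes.

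**Figure D4:**
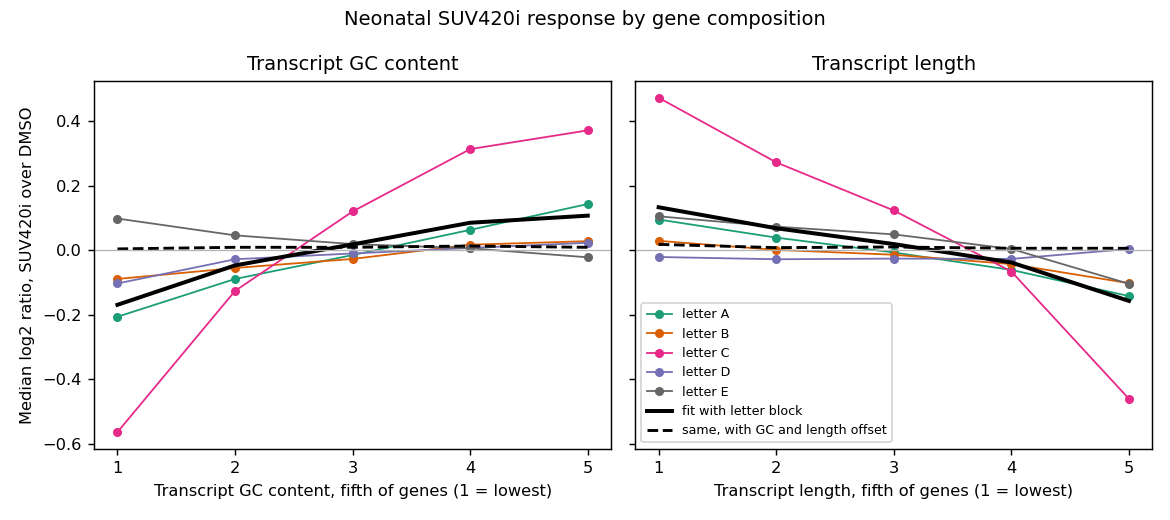
Median log2 ratio of SUV420i over DMSO in neonatal cells within 5 equal bins of 10999 protein-coding genes ordered by transcript GC content (left) or length (right), for each letter (coloured), the blocked fit (solid black) and the blocked fit with the GC and length offset (dashed). Letter C runs from -0.563 to 0.371 with GC, and the dashed line stays near 0.

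The same genes could be read in adult cells, whose libraries share no control with the neonatal ones. Of the 99 genes, 93 differed in the same direction between SUV420i and DMSO in adult cells, 74 of the 78 higher and 19 of the 21 lower, where 55.9% of all genes had the same direction at both ages. In the blocked fit 58 of them had an adult unadjusted p below 0.05 in the neonatal direction and 1, Gm13340, in the other direction. Without the block 19 had such a p in the neonatal direction. Over all genes 6.34% had such a p in either direction, 4.16% higher and 2.18% lower. A fit of the 14 adult libraries alone, chosen after seeing the data, gave 62 of 99, beside 7.58% of all genes. The adult differences were smaller, with medians of 0.35 for the higher and -0.12 for the lower genes, against 0.57 and -0.37 in neonatal cells, where the genes had been chosen. Only Stc2 and Tmem158 among the 99 were called in adult cells by the joint blocked fit, which called 3 genes there (0.0148%), and the fit of the adult libraries alone called 0.

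Scg2 ran from 0.317 to 85.9 CPM in adult DMSO libraries and from 0.617 to 202 CPM with SUV420i, and was higher with SUV420i in all 4 letters (log2 fold change 0.97 ± 0.22, edgeR adjusted p = 0.117). H2-K1 averaged 24.3 ± 4.63 CPM (SD, n = 4) with DMSO and 34.4 ± 6.89 CPM with SUV420i, with a log2 fold change of 0.50 ± 0.09 (edgeR adjusted p = 0.0679). Rarb averaged 10.7 ± 2.66 and 7.05 ± 1.52 CPM, and was lower in all 4 letters, as were Msn and Sdc3. Stc2, at 4.87 ± 1.08 and 8.57 ± 1.82 CPM, had an adult log2 fold change of 0.81 ± 0.11 (edgeR adjusted p = 0.00420 for SUV420i against DMSO). The neonatal one was smaller, but the difference between ages, -0.40 ± 0.15, did not pass (edgeR adjusted p = 0.696, blocked fit). Tmem158, a membrane protein gene, rose by 0.62 in adult and 0.53 in neonatal cells. Other neonatal changes had little counterpart: Atp6v1a averaged 208 ± 21.5 and 200 ± 5.73 CPM in adult cells, Lrp1 1200 ± 98.4 and 1154 ± 137 CPM, and Erich3 4.41 ± 2.27 and 4.60 ± 1.62 CPM.

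The difference between ages was tested as an interaction and no gene passed. With no block, edgeR's quasi-likelihood test called 0 of 20259 genes and 486 had an unadjusted p below 0.05. With the block it called 0 (0%) and 1279 genes (6.31%) had such a p, and DESeq2 with the block called 1. Among the 99 neonatal genes 30 had an unadjusted interaction p below 0.05, 29 of them with the smaller difference in adult cells; the genes had been chosen for their neonatal difference, so nothing is read from that direction. For Erich3 the neonatal log2 fold change exceeded the adult one by 0.71 ± 0.19 and for Lrp1 the difference between ages was -0.45 ± 0.17 (both edgeR adjusted p = 0.696).

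**Figure D5:**
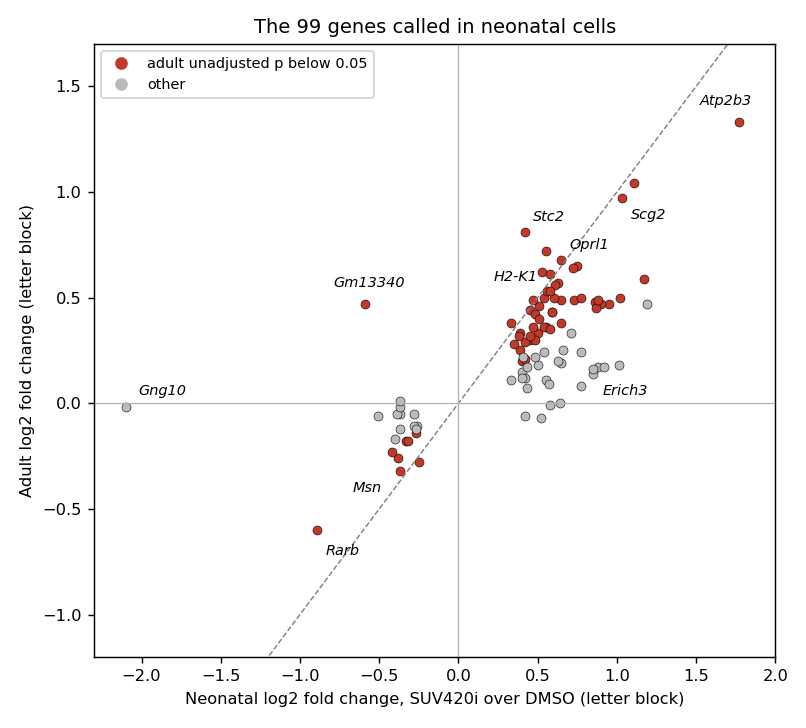
Log2 fold change of SUV420i over DMSO in neonatal cells (horizontal) and adult cells (vertical), from the fit with the letter block, for the 99 genes called in neonatal cells; red points had an adult unadjusted p below 0.05 and the dashed line marks equal values. Of the 99 points, 93 lie in the quadrants of equal sign, and most lie nearer 0 on the adult axis.

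A second comparison set the SUV420i cultures against the KATi cultures of the same letters, which asks where both inhibitor treatments differ. All 5 same-letter pairs deviated together (r from 0.18 to 0.79), and 3 of the 5 SUV420i libraries correlated best with the KATi library of their own letter. With no block edgeR called 0 of 20259 genes (0%), and with the block 545 (2.69%), of which 337 were higher with SUV420i and 208 higher with KATi. Of the 545, 217 were also called between KATi and DMSO and 34 between SUV420i and DMSO, beside 4.85% and 0.489% of all genes tested. These contrasts share the KATi or the SUV420i libraries with the one that chose the 545, so the overlaps are a description and not separate support. Genes with large differences in either direction were the following. Neu4, a sialidase of the oligodendrocyte lineage, averaged 7.98 ± 7.45 CPM with SUV420i and 2.12 ± 2.47 CPM with KATi (log2 difference 1.99 ± 0.33, edgeR adjusted p = 0.00192), and Col9a1, a collagen, 20.9 ± 18.2 and 6.28 ± 5.93 CPM. Neither passed between SUV420i and DMSO. Adm, the peptide hormone adrenomedullin, averaged 4.55 ± 3.04 CPM with SUV420i and 10.5 ± 8.16 CPM with KATi (log2 difference -1.14 ± 0.16, edgeR adjusted p = 0.000405). Col18a1, a basement membrane collagen, averaged 5.68 ± 1.78 and 14.02 ± 9.74 CPM, and Anxa3, an annexin, 5.95 ± 2.79 and 14.4 ± 8.77 CPM. None of Adm, Col18a1 and Anxa3 passed between SUV420i and DMSO. Between KATi and DMSO all of these genes passed, with log2 fold changes of -1.37 for Neu4 and -1.13 for Col9a1. Those of Adm, Col18a1 and Anxa3 were 1.28, 1.15 and 0.94 (edgeR blocked adjusted p from 0.000453 to 0.0233 over all of them).

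Of the 99 genes called against DMSO, 34 also differed between both inhibitors in this blocked test, beside 2.69% of all genes tested. The test reuses the SUV420i libraries by which the 99 were chosen, so these differences are a description and not separate support. Oprl1 averaged 9.83 ± 1.404 CPM with SUV420i, 6.23 ± 0.445 CPM with DMSO and 4.97 ± 1.05 CPM with KATi, and Msn 264 ± 21.4, 341 ± 23.7 and 376 ± 22.7 CPM in the same order. SUV420i and KATi differed by 0.98 for Oprl1 and by -0.51 for Msn on the log2 scale (both edgeR adjusted p = 0.000335). For Scg2 the difference was 0.87 and for Rarb -0.71 (edgeR adjusted p = 0.00876 and 0.00324). H2-K1 averaged 31.3 ± 8.58 CPM with KATi, between its DMSO and SUV420i means, and the difference between inhibitors did not pass (edgeR adjusted p = 0.0931). For Pfkl and Stc2 the differences of 0.19 ± 0.09 and 0.25 ± 0.10 between inhibitors did not pass either (edgeR adjusted p = 0.315 and 0.205).

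At the extremes of fold change stood genes of very low level, named here after their values were seen. Atp2b3 ranged from 0.0776 to 0.186 CPM with DMSO and from 0.211 to 0.567 CPM with SUV420i, with a log2 fold change of 1.77 ± 0.36. Gng10 ranged from 0.217 to 0.623 CPM and from 0.0291 to 0.155 CPM, with -2.10 ± 0.48, and shares exons with another gene on its strand, so its reads may have been split in counting. Neither group overlapped the other for these genes, and few reads stand behind the lower values.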

How the data were processed

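RNA-seq was deposited as a table of raw counts per gene and library. Per the submitters' processing notes, the authors used CASAVA 1.8.2, Subread, featureCounts and DESeq2 with the mm10 genome; the tools' roles and settings, the annotation release and whether counting used strand were not given in the labels. Columns were matched to samples by age, treatment and letter. Symbols, positions, transcript length and GC came from GENCODE M21 (GRCm38).

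Of 56980 gene identifiers, 20259 passed edgeR's expression filter (minimum count 10) and held 99.95% of counts. Identifiers without a symbol numbered 4907 and took 2.37% of counts. All 32 libraries in 8 groups were fitted together with edgeR 4.0.16 (R 4.3.3) by TMM scaling and quasi-likelihood tests, so the groups shared one estimate of the spread. Calls used a Benjamini-Hochberg adjusted p below 0.05 over all genes tested. The script was tested on simulated counts. Alternatives were the letter within age as a replicate block, DESeq2 1.42.0, RLE scaling, no expression filter, fewer libraries and each library left out. Added after seeing the data were a per-library lowess offset for GC and length (span 0.3, 3 rounds), alone and with letter C left out, and a fit of the adult libraries alone.

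Same-letter pairing was checked by the correlation of deviations from group means over 11945 genes; it comes from the letters in the labels, and 4 of 5 neonatal and 4 of 4 adult pairs of SUV420i and DMSO exceeded 0.1. Named genes were up to 12 rises and 12 falls by size among calls with a mean log2 CPM of at least 2 and one direction in all letters, leaving out predicted, mitochondrial and ribosomal genes; up to 3 calls per gene list; 10 genes always given; and 3 per direction in the comparison with KATi, of which 1 is not reported here. As no gene passed without the block, the blocked calls were used. The libraries of each group differed by more than sampling noise, so none was merged. The members and the gene lists were chosen with earlier results of these data known, and 6 of the 48 lists after values were seen.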

Additional observations from a re-analysis of the deposited data

Results flagged for a closer look

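Among 96 groups of 5 libraries tested, 5 held a library whose gap to its nearest neighbour exceeded 0.71 of the group's range; chance gives about 1 in 20. S100a1 stood at 13.9 CPM in the DMSO library of letter D, with the next library at 5.14 CPM. Pfkl stood at 55.9 CPM in the SUV420i library of letter C, with the next at 46.1 CPM. Adm stood at 13.97 CPM in the DMSO library of letter B, with the next at 3.44 CPM, and at 9.96 CPM in the SUV420i library of letter B, with the next at 3.48 CPM. Col18a1 stood at 13.7 CPM in the DMSO library of letter B, with the next at 5.63 CPM.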

How the results depend on the processing

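The count of called genes between SUV420i and DMSO in neonatal cells, 0 without a block, was 99 with the replicate block, 283 with the block and the GC and length offset, 2 in the blocked fit of 18 neonatal libraries, and 8, 43, 209 and 17 in the block without letter A, B, D or E. It was 18 with the offset and block without letter C, 1 with DESeq2 and 605 with DESeq2 and the block, and 0 to 1 with single libraries left out (1 without SUV420i replicate 3). RLE scaling, no expression filter, only the 10 libraries with or without the block, the offset without a block and the block without letter C gave 0. The pairing criterion was not met in neonatal cells, where 4 of 5 letters exceeded 0.1 and 3 of 5 SUV420i libraries correlated best with their own letter. The interaction with age had 0 calls under every setting run except DESeq2 with the block, which called 1. SUV420i against KATi, 0 without a block, had 545 calls with the replicate block, 1267 with offset and block, 9 with DESeq2, 909 with DESeq2 and the block, and 0 to 1 with single libraries left out (1 without KATi replicate 2).

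Of 1248 log2 fold changes of 48 named genes under alternatives, 1049 kept direction and side of the threshold, 164 passed only under the alternative, and 35 in 8 genes changed sign, none of them called against DMSO. Adm (-0.10) was 0.14 with the block, 0.01 with offset and block, 0.14 and 0.12 in the blocked fits of 10 and 18 libraries, 0.02, 0.36, 0.18, 0 and 0.14 in the block without letters A to E, 0.13 with offset and block without letter C, 0.14 in DESeq2 with the block, and -0.60 to 0.82 with single libraries left out. Col18a1 (-0.14) was 0.02 with the block, 0 with offset and block, 0.19 and 0.01 in the block without letter B or D, 0.02 in DESeq2 with the block and -0.33 to 0.38 with single libraries left out. Cdkn1a (0.08) was -0.06 with the offset, -0.05 with offset and block, -0.01 with these without letter C, and -0.07 to 0.26 with single libraries left out. Kmt5a (0.04) was -0.03, -0.02 and -0.01 in the same 3 fits, and -0.02 to 0.15 with single libraries left out. Trp53bp1 (-0.15) was 0.04 with the offset, with or without the block, and Pdgfra 0 with offset and block without letter C. With single libraries left out, Gpr17 ran from -0.03 to 1.02 and Anxa3 from -0.54 to 0.08. The cause of these changes was not tested.

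Few reads stand behind Atp2b3 and Gng10. Within letter C, treatment and what else set its libraries apart cannot be told apart, and the labels do not say what a letter marks. The protein and histone mark levels were not measured in these files.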

Other observations

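In adult cells, the fit with the GC and length offset and the letter block called 21 genes (0.104%) between SUV420i and DMSO. All 21 had the same direction in neonatal cells, but Rars2 and Gm12338 had log2 fold changes of only -0.03 ± 0.05 there. In the blocked fit without the offset, 55.9% of all genes had the same direction at both ages. Called at both ages were 10 of the 21, beside 1.4% of all genes called in neonatal cells by the offset fit. Besides Oprl1, Msn, Sdc3, Tmem158, Stc2, Bdh1 and H2-K1, these were Scd2, a stearoyl-CoA desaturase, with log2 fold changes of 0.25 ± 0.06 in neonatal and 0.34 ± 0.07 in adult cells, Rtn1, a reticulon of the endoplasmic reticulum, with -0.20 ± 0.05 and -0.26 ± 0.05, and Ddost, a subunit of the oligosaccharyltransferase, with -0.16 ± 0.04 and -0.23 ± 0.04. Lipid genes called only in adult cells in that fit were Insig1, which restrains sterol synthesis (0.06 ± 0.07 in neonatal and 0.47 ± 0.08 in adult cells), Scd1 (0.11 ± 0.05 and 0.39 ± 0.06) and Dgat2, a triglyceride synthesis enzyme (0.17 ± 0.07 and 0.43 ± 0.08). In that fit the interaction with age called 0 of 20259 genes by edgeR's quasi-likelihood test, with 1575 at an unadjusted p below 0.05. These genes were chosen after their values were seen.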
